A study of Mus musculus with 8 samples.

Results

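Granulosa cells lacking CNOT6 and CNOT6L were compared with wild-type granulosa cells taken without PMSG, the gonadotropin with FSH-like activity that drives follicles to grow. A gene entered the comparison when its FPKM (fragments scaled to transcript length and to the mapped fragments of the library) was at least 1 in at least 2 of the 4 untreated libraries, which 12970 of the 23235 genes in the deposited table were. Of these, 11737 reached 1 FPKM in all 4 libraries, 248 passed only through both knockout libraries and 53 only through both wild-type libraries. The other 10265 genes were not tested. At the edge of the threshold, Cx3cr1 was kept (1.0002 and 0.726 FPKM in WT, 2.004 and 0.849 in KO) and Agmat was not (0.735 and 0.999 in WT, 0.661 and 1.87 in KO). Both groups were female C57BL/6 mice with no treatment: wild type (WT, 2 libraries) and CNOT6/6L knockout, also labelled Cnot66l DKO (KO, 2 libraries). The series holds 8 libraries in all, and the other 4 are the same genotypes 44 h after PMSG. The sources used here leave out the age, the way the knockout was made, the deleted part of either gene and whether the libraries of a group are separate animals or pools. P-values here rest on the scatter among 4 libraries, and that scatter may be technical.

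CNOT6 and CNOT6L are the paralogous deadenylase subunits of CCR4-NOT, the complex that shortens the poly(A) tails of mRNAs and so starts their decay. Granulosa cells surround and nourish the oocyte. They take up and make cholesterol, turn it into steroid hormones under FSH and LH, and exchange signals with the oocyte through secreted factors and gap junctions. The untreated comparison asks how the transcriptomes of the genotypes differ before the gonadotropin is given.

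The targeted genes come first, as a check of the labels. Cnot6 stood at 29.1 and 18.4 FPKM in WT, against 11.7 and 12.01 in KO. Both KO libraries lay below both WT libraries, yet the mean difference of -0.91 on the log2(FPKM + 1) scale (SE 0.24) had a limma adjusted p of 0.281. Cnot6l was 6.11 and 7.07 FPKM in WT, against 4.69 and 1.97 in KO, a difference of -0.88 (SE 0.34, adjusted p = 0.349). The KO libraries again lay below, with the second well under the first. FPKM is a value over the whole gene, so transcripts that carry a deletion can still add to it.

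The WT libraries resembled each other more than they resembled any KO library, while the KO pair lay within the range of pairs across genotypes. Across genes, Pearson's r of log2(FPKM + 1) was 0.971 for the WT pair, 0.962 for the KO pair and from 0.948 to 0.966 for a WT with a KO library. Genes at least 1 (log2) apart numbered 289 between the WT libraries, 367 between the KO libraries and 408 between the group means. Group means scatter less than single libraries, so the last count is not on the same scale as the others. FPKM summed to between 675557 and 710471 per library, and 12391 to 13196 genes reached 1 FPKM. Read depth cannot be taken from these sums. All 20 genes of a granulosa identity list were measured, among them Inha, the inhibin alpha subunit, at 9428 and 8434 FPKM in WT, against 10254 and 10433 in KO. The transcription factor Foxl2 was 15.8 and 14.1 FPKM in WT, against 15.9 and 15.5 in KO, and Amhr2, the receptor of anti-Mullerian hormone, was 198 and 226 in WT, against 255 and 199 in KO. The tissue label thus had its defining markers in every library.

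Red cell genes set the first library of each genotype apart from the second, and leukocyte genes set KO library 1 apart. The 5 tested erythroid genes summed to 1715 FPKM in WT library 1 and 2242 in KO library 1, against 240.0 and 246 in the second libraries of the same genotypes. The 23 tested immune genes summed to 492 and 354 FPKM in WT, 1462 in KO library 1 and 315 in KO library 2. The sum was thus high in KO library 1, whereas KO library 2 lay under both WT libraries.

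At an adjusted p under 0.05, 7 of the 12970 genes were called (0.054%), 2 higher (0.0154%) and 5 lower (0.0386%) in KO. All 7 were short RNA entries, 4 microRNAs and 3 small nucleolar RNAs, and all but Mir686 were listed at 0 in both libraries of a genotype. Each passed the filter only through the group where it was high, so it had to differ, and its adjusted p describes these values and supports nothing further. The microRNAs are shown because their mature sequences share no seed, the stretch at bases 2 to 8 that pairs with target mRNAs. The RefSeq sequences (GRCm38.p6) follow, 5′ to 3′, with the seed in capitals. The mature microRNAs lie at chr7:44849705-44849725 (plus strand), chr16:43640665-43640684 (plus), chr10:120448052-120448073 (minus) and chr14:54616746-54616767 (minus), in the order of the lines.
Mir707 (mmu-miR-707): cAGUCAUGccgcuugccuacg
Mir568 (mmu-miR-568): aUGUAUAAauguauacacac
Mir763 (mmu-miR-763): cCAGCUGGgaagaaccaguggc
Mir686 (mmu-miR-686): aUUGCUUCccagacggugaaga

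Mir707 was 243 and 221 FPKM in WT and listed at 0 in both KO libraries (limma adjusted p = 0.000281). Mir568 was 119 and 108 in WT and listed at 0 in KO (adjusted p = 0.000411), and Snora69 was 20.6 and 18.7 in WT and listed at 0 in KO (adjusted p = 0.00368). For these 3 entries the ratio of WT library 1 to WT library 2 was the same, 1.103, which is also the most common ratio among 4332 genes under 1 FPKM in both WT libraries. A ratio at that step is what equal numbers of fragments give in both libraries. It was seen, within 0.5%, for 11 of the 79 short RNA entries tested (13.9%) and for 267 of the other 12891 genes (2.07%).

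Snord35b was 198 and 89.7 FPKM in WT and listed at 0 in KO, with a WT ratio 2 times the step. Mir686 was 140 and 304 in WT, against 0.0137 and 0.0609 in KO. In the other direction, Snord42b was listed at 0 in WT and was 2467 and 5165 in KO, a ratio 0.5 times the KO step, and Mir763 was listed at 0 in WT and was 39.8 and 62.4 in KO, a ratio 0.667 times that step. The RefSeq genes of the 7 entries were 55 to 122 bases long, shorter than the 150-base reads in the labels. Ratios at 2, 0.5 or 0.667 times a step are what small whole numbers of fragments would give. Those of Mir686 were 0.419 times the WT step and 0.235 times the KO step. The number of fragments itself was not analysed here. In the 44 h libraries Mir763 and Snora69 were listed at 0 in all 4, and Mir707 and Snord42b had a value only in WT library 1 (429 and 2415 FPKM). Mir568 had a value only in the library labelled KO replicate 1 (107). Snord35b was 87.1 and 92.0 in WT, against 267 and 71.2 in KO, and Mir686 was 468 and 756 in WT, against 457 and 317 in KO.

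Without the short RNA entries, limma called 0 of 12891 genes, while 1356 higher and 541 lower had an unadjusted p under 0.05. With them, 1303 genes (10%) were higher and 524 (4.04%) lower at that unadjusted level. Quantile normalization moved this split to 1017 higher and 757 lower, and median-of-ratios scaling to 1128 and 648. In the fit of all 8 libraries, 4 genes were called higher, Fetub, Gm9513, Lims2 and Mir763, and 3 lower, Mir686, Snora69 and Snord35b. Leaving out a library gave 3 to 6 calls higher and 5 to 16 lower. The 16 came without KO library 1 and included Mug2, Cald1, Prss23 and Plbd1. These fits assume that the lone library varies as the other group does. Apart from Mir686, Mir763 and Snora69, which return with the 44 h libraries, no gene named from here on passed the test at 0 h in the 4-library fit, and each is given by its values.

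**Figure D1:**
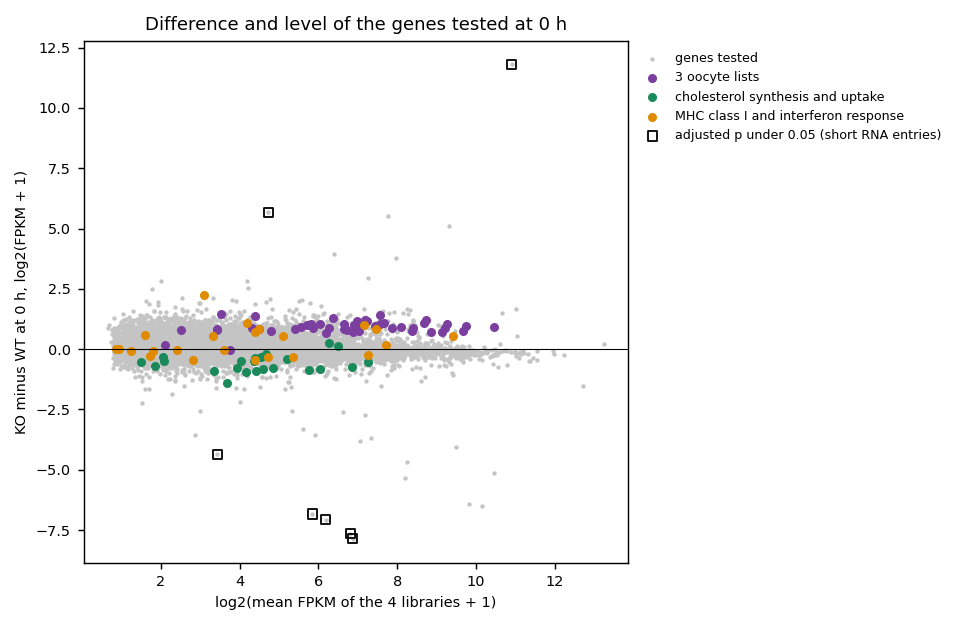
Each point is 1 of 12970 genes: the x axis is the log2 of the mean FPKM of the 4 libraries plus 1, and the y axis the KO minus WT difference in log2(FPKM + 1). The 7 called entries (squares) lie far from 0, from -7.86 to 11.80, the oocyte genes (purple) sit in a band near 0.89, and the cholesterol genes (green) mostly lie below 0.

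Among genes of at least 5 FPKM whose groups did not overlap, Lims2 had the smallest p of the 10 with the largest differences upward. Lims2 encodes a LIM-domain adaptor of focal adhesions. It was 8.37 and 10.6 FPKM in WT, against 39.8 and 47.0 in KO, a difference of 2.08 (SE 0.19, limma adjusted p = 0.0866, and 0.0441 in the fit of all 8 libraries). Fetub, fetuin-B, is a secreted protease inhibitor that keeps the zona pellucida from hardening by blocking ovastacin. It was 19.7 and 25.0 FPKM in WT, against 94.0 and 78.4 in KO, a difference of 1.90 (SE 0.18, adjusted p = 0.105, and 0.0155 with all 8 libraries). Both KO libraries lay more than 3 times above both WT libraries for each of these genes.

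Gtf2a1l, a germ-cell form of a general transcription factor subunit, was 8.28 and 10.6 FPKM in WT, against 44.3 and 33.8 in KO (difference 1.93, SE 0.21). Lmcd1, a LIM-domain transcriptional cofactor, was 1.97 and 3.57 in WT, against 13.6 and 16.8 in KO (2.13, SE 0.27). Il17f, a cytokine, was 2.996 and 7.57 in WT, against 23.7 and 21.6 in KO (2.01, SE 0.37). In these 3 genes the KO libraries were close to each other, which was not so throughout the 10. Akr1b3, aldose reductase, was 0.00180 and 15.0 FPKM in WT, against 23.9 and 30.5 in KO, so its difference of 2.80 (SE 1.23) rested on WT library 1. Il17b was 1.08 and 1.15 in WT, 24.1 in KO library 1 and 1.53 in KO library 2. Nrsn1 was 1.69 and 3.06 in WT and 11.3 in both KO libraries, and Batf3, a transcription factor of dendritic cells, was 3.12 and 0.787 in WT, against 7.03 and 8.34 in KO.

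Among the 10 with the largest differences downward, Ghr, the growth hormone receptor, was 51.7 and 63.9 FPKM in WT, against 25.3 and 14.0 in KO (difference -1.56, SE 0.29, adjusted p = 0.219). Prss23, a secreted serine protease, was 297 and 257 in WT, against 136 and 67.7 in KO (-1.51, SE 0.33). Stc1, the hormone stanniocalcin, was 11.6 and 18.5 in WT, against 4.19 and 3.97 in KO (-1.63, SE 0.26). For Ghr and Prss23 the second KO library was the lower, by a wide margin for Prss23, whereas for Stc1 the KO libraries nearly coincided.

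Mug2, a protease-binding protein of the alpha-macroglobulin family, was 14.8 and 10.3 FPKM in WT, against 2.51 and 0.459 in KO, the largest of the 10 differences downward (-2.56, SE 0.45). Cald1, the actin-binding protein caldesmon, was 30.9 and 33.1 in WT, against 17.5 and 5.68 in KO. Cdc42ep3, a CDC42 effector, was 45.9 and 61.5 in WT, against 25.1 and 15.5 in KO. The KO libraries of these 3 genes differed from each other, again with library 2 the lower. Frzb, a secreted WNT antagonist, was 8.34 and 4.15 in WT, against 3.21 and 0.857 in KO, and Coch was 7.73 and 8.06 in WT, against 3.17 and 1.28 in KO. Cyp11a1, which makes pregnenolone from cholesterol, was 78.3 and 29.7 in WT, against 24.1 and 13.5 in KO, with the WT libraries themselves more than 2 times apart.

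**Figure D2:**
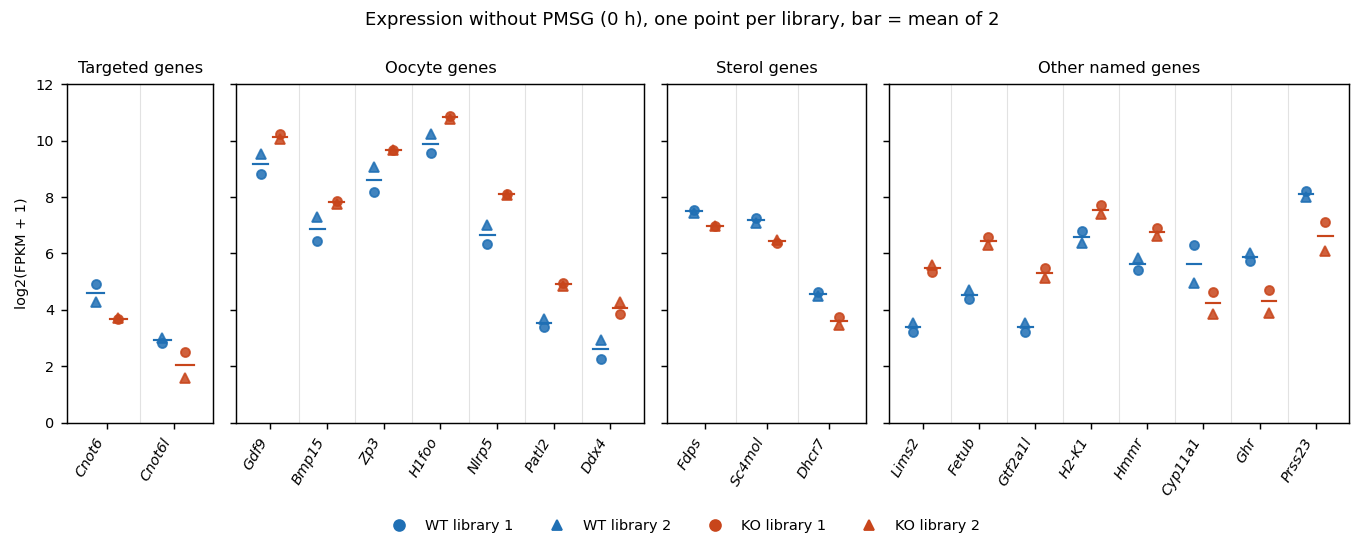
Each symbol is 1 untreated library (blue WT, orange KO, circles library 1, triangles library 2) and each bar the mean of 2, on a log2(FPKM + 1) axis. In all genes drawn the KO libraries lie on 1 side of the WT libraries, and the WT libraries of the oocyte genes stand apart from each other, library 1 the lower.

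Oocyte transcripts were higher in KO nearly without exception. Of the 47 tested genes of 3 oocyte lists, 46 had the higher mean in KO, where 54.2% of all genes did, and 44 had both KO libraries above both WT libraries, against 27.4% of all genes. Their median difference was 0.89, where that of all genes tested was 0.03. Of the 47, 37 were higher with an unadjusted limma p under 0.05, where 10% of all genes were. None was called, the smallest adjusted p being 0.189, for Patl2. The 47 genes together made 0.740% and 1.29% of the summed FPKM in WT and 2.097% and 1.76% in KO, so the 2 WT libraries differed as well. The median difference was 1.45 for KO library 1 against WT library 1 and 0.45 for KO library 2 against WT library 2, and the second WT library lay above the first by a median of 0.75. In these bulk libraries, more cells of a type and more RNA per cell cannot be told apart.

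All 9 genes of secreted factors and the zona pellucida lay higher in KO, with a median of 1.00. Gdf9, the oocyte growth factor that drives granulosa cells to proliferate, was 452 and 743 FPKM in WT, against 1200.1 and 1055 in KO (difference 0.96, SE 0.25, adjusted p = 0.281). Its partner Bmp15 was 86.1 and 155 in WT, against 234 and 213 in KO (0.94, SE 0.28). Zp3, a structural protein of the zona, was 290 and 530 in WT, against 821 and 803 in KO (1.05, SE 0.29). In each of these 3 genes the order of the libraries was the same, WT 1, WT 2, KO 2 and KO 1 from the lowest up. Zp2 was 62.5 and 114 in WT, against 210 and 186 in KO, and Zp1 was 85.02 and 164 in WT, against 264 and 232 in KO. Astl, which encodes ovastacin, the protease that Fetub blocks, was 38.1 and 58.2 in WT, against 125 and 107 in KO, the largest difference of the 9 (1.27, SE 0.23).

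All 23 maternal-effect genes, whose products are stored in the oocyte for the embryo, had both KO libraries above both WT libraries (median 0.90). Of all genes, 27.4% did. H1foo, the oocyte linker histone, was the most abundant, at 755 and 1199 FPKM in WT, against 1874 and 1745 in KO (0.93, SE 0.23). Nlrp5, the MATER protein of the subcortical maternal complex, was 78.9 and 128 in WT, against 277 and 268 in KO (1.43, SE 0.24, adjusted p = 0.213). Dppa3, which protects maternal DNA methylation, was 343 and 496 in WT, against 830 and 701 in KO (0.89, SE 0.21). The differences of the 23 ranged from 0.65 to 1.43. Towards the low end Zbed3 was 428 and 823 in WT, against 1175 and 835 in KO, with KO library 2 scarcely above WT library 2.

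Of the 15 tested oocyte transcription factors and RNA-binding proteins, 14 lay higher in KO (54.2% of all genes). Without overlap, 13 lay above (27.4% of all genes), and the median was 0.84. Patl2, a repressor of translation in oocytes, was 9.41 and 11.7 FPKM in WT, against 30.1 and 28.1 in KO (1.39, SE 0.17). Ddx4, the germ-cell RNA helicase VASA, was 3.81 and 6.68 in WT, against 13.3 and 18.4 in KO (1.45, SE 0.29). Btg4, the oocyte adaptor that brings CCR4-NOT to mRNAs, was 190 and 316 in WT, against 420 and 403 in KO (0.75, SE 0.25). The exception was Taf4b, at 16.99 and 8.65 in WT, against 9.68 and 14.7 in KO. Sohlh1 and Sohlh2, which act in the youngest oocytes, did not pass the filter.

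Genes of meiotic chromosomes, a separate list, followed in part: 11 of 13 tested lay higher (54.2% of all genes), 10 without overlap (27.4% of all genes), with a median of 0.54. Syce2, a synaptonemal complex protein, was 118 and 162 FPKM in WT, against 230 and 193 in KO (0.60, SE 0.19), and Tex15 was 9.24 and 8.19 in WT, against 18.1 and 15.5 in KO (0.87, SE 0.18). Spo11 and Dmc1 were among the 6 of 19 that did not pass the filter.

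**Figure D3:**
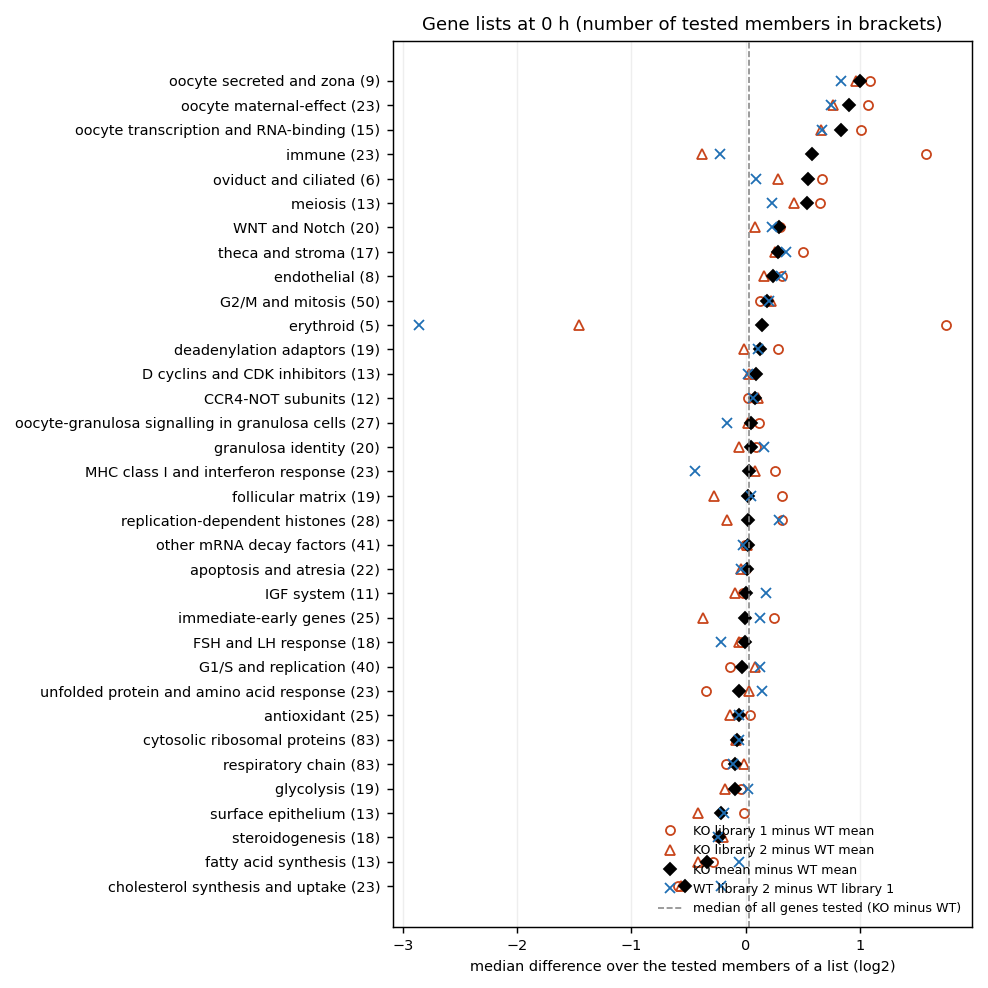
Each row is 1 of 34 gene lists, and the x axis the median over its tested members of a difference in log2(FPKM + 1): KO mean minus WT mean (black), each KO library minus the WT mean (open orange) and WT library 2 minus WT library 1 (blue crosses). The oocyte lists lie highest, near 0.9, and cholesterol synthesis lowest, at -0.53, while the immune and erythroid symbols of the 2 KO libraries fall on opposite sides of 0.

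In the other direction, genes of cholesterol synthesis and uptake were lower in KO. Of 23 tested, 21 had the lower mean in KO, where 45.8% of all genes did, and 19 had both KO libraries below both WT libraries, against 19.4% of all genes. The median difference was -0.53, and 14 of the 23 were lower with an unadjusted limma p under 0.05, where 4.04% of all genes were. None was called by limma with Benjamini-Hochberg adjustment. Unlike the oocyte genes, the list gave a similar median in every pairing, from -0.47 (KO library 2 against WT library 2) to -0.71 (KO library 1 against WT library 2), and the WT libraries differed by a median of -0.21.

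Sc4mol, the sterol methyl oxidase now named Msmo1, was 153 and 135 FPKM in WT, against 82.1 and 88.1 in KO (-0.75, SE 0.13, adjusted p = 0.213). Dhcr7, which catalyses a last step to cholesterol, was 23.7 and 21.4 in WT, against 12.4 and 10.1 in KO (-0.95, SE 0.18). In both genes the 2 groups were tight and apart. Fdps, which makes farnesyl pyrophosphate, was 186 and 174 in WT, against 126 and 125 in KO (-0.52, SE 0.12). Srebf2, the transcription factor that drives these genes when sterols are low, was 1.92 and 2.76 in WT, against 1.25 and 1.33 in KO (-0.53, SE 0.21). The 2 members that lay higher were Fdft1, at 83.0 and 89.1 in WT, against 96.7 and 89.4 in KO, and Insig1, at 75.9 and 61.9 in WT, against 75.4 and 89.0 in KO. Insig1 retains the SREBP proteins in the endoplasmic reticulum. Hmgcs1 did not pass the filter.

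The promoters of this list often held a sequence motif that was not particular to it. The motif CCAAT, searched on both strands (ATTGG on the strand shown), was in the window from 250 bases before to 50 bases after the start site in 15 of the 16 members with a RefSeq promoter (93.8%). It was in 43.4% of 9183 tested genes with a promoter and in 41.1% of 27025 genes with one. A gene counted when any of its windows held the motif. Other lists were above that share too, with 7 of 11 fatty acid synthesis genes (63.6%) and 12 of 17 oocyte maternal-effect genes (70.6%). The 3 oocyte lists together, which lay higher in KO, had it in 20 of 36 (55.6%), and the secreted and zona genes in 1 of 5. A match is a run of letters and no measured binding. Idi1, Lss and Cyp51 are printed as examples from different steps of the pathway, chosen after their values were seen. They lie at chr13:8885356-8885655 (plus strand), chr10:76531355-76531654 (plus) and chr5:4104648-4104947 (minus) of GRCm38.p6, with the motif in capitals on either strand.
Idi1: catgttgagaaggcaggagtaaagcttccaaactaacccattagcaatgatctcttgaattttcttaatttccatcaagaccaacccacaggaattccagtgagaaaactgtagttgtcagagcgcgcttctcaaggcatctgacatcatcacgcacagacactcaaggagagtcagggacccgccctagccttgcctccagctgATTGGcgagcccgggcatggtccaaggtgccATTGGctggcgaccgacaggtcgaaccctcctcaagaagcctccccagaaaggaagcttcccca
Lss: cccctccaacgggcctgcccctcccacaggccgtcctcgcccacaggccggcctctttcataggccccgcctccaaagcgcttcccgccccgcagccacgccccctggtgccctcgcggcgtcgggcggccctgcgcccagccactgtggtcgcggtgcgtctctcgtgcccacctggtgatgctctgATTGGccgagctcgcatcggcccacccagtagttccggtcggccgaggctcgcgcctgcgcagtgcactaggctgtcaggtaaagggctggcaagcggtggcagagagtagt
Cyp51: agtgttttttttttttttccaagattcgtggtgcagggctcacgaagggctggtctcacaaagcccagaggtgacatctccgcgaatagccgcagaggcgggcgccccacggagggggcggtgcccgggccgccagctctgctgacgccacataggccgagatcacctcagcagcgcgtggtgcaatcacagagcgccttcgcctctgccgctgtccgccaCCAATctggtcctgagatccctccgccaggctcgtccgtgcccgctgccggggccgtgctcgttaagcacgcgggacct

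Idi1, isopentenyl diphosphate isomerase, was 30.4 and 23.2 FPKM in WT, against 12.3 and 14.9 in KO (-0.92, SE 0.20). Lss, which closes the sterol ring, was 13.9 and 10.6 in WT, against 5.34 and 6.77 in KO (-0.91, SE 0.22), and Cyp51, the lanosterol demethylase, was 32.5 and 27.1 in WT, against 14.7 and 18.6 in KO (-0.81, SE 0.19). In all 3 the highest KO library was under the lowest WT library. The motif CANNTG (an E-box, which reads CANNTG on both strands) was in 33 of 36 oocyte list genes with a promoter (91.7%). It was in 68% of tested genes with a promoter and in 75% of all genes with one. It is shown in Zp3, at chr5:135979855-135980154 (plus strand), which holds 4.
Zp3: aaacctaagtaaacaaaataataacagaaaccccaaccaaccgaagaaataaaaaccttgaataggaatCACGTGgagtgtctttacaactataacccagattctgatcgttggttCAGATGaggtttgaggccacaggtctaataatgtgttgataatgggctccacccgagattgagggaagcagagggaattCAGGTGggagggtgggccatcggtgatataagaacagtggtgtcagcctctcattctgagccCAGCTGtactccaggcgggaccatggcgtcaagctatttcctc

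Genes of fatty acid synthesis and of steroid synthesis leaned the same way as those of cholesterol, less evenly. For fatty acids, 10 of 13 tested genes lay lower, where 45.8% of all genes did, and 7 lay below without overlap, where 19.4% of all genes did (median -0.33). Acly, which makes cytosolic acetyl-CoA, was 73.1 and 70.3 FPKM in WT, against 45.3 and 51.0 in KO (-0.57, SE 0.13, adjusted p = 0.271). Elovl5, a fatty acid elongase, was 154 and 126 in WT, against 87.9 and 91.8 in KO (-0.63, SE 0.15). Me1, the cytosolic malic enzyme, went the other way, at 55.1 and 71.2 in WT, against 112 and 95.1 in KO (0.71, SE 0.18). Srebf1 and Fasn, the transcription factor and the synthase of the pathway, had differences of -0.08 and -0.33.

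For steroid synthesis, 15 of 18 tested genes lay lower (45.8% of all genes), and 7 lay below without overlap (19.4% of all genes). The median of -0.23 depended on the WT library: KO libraries 1 and 2 gave -0.48 and -0.46 against WT library 1, but -0.14 and -0.22 against WT library 2, and the WT libraries were themselves -0.24 apart. Hsd3b1, which makes progesterone, was the most abundant, at 2354 and 1890.3 FPKM in WT, against 1607 and 1133 in KO (-0.64, SE 0.21, adjusted p = 0.308). Scarb1, the HDL receptor, was 99.8 and 93.6 in WT, against 70.7 and 56.9 in KO (-0.60, SE 0.15). Srd5a1, a steroid 5-alpha reductase, was 11.5 and 8.64 in WT, against 5.81 and 2.84 in KO (-1.10, SE 0.33). These 3 genes had no overlap, unlike Hsd17b1 (389 and 377 in WT, 444 and 340 in KO) and Cyp19a1, the aromatase (16.8 and 9.55 in WT, 11.1 and 13.8 in KO). Nr5a1, the steroidogenic factor SF-1, was 30.5 and 22.6 in WT, against 18.5 and 15.0 in KO (-0.62, SE 0.21). The theca marker Cyp17a1 was 21.6 FPKM in WT library 1 and 1.95 in WT library 2, against 2.28 and 9.29 in KO. WT library 1 was also the highest for Cyp11a1, and the part of other cell types in that value was not tested.

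Mitotic genes leaned higher in KO, and genes of DNA replication lay on both sides of 0. Of 50 genes of G2 and mitosis, 40 lay higher (54.2% of all genes), 21 without overlap (27.4% of all genes), and the median was 0.19, or 0.06 without WT library 1. Hmmr, a spindle protein, was 41.7 and 56.7 FPKM in WT, against 120 and 96.3 in KO (1.13, SE 0.20, adjusted p = 0.213). Birc5, survivin, was 220 and 290 in WT, against 358 and 347 in KO (0.48, SE 0.16), and Ccnb1, cyclin B1, was 198 and 253 in WT, against 295 and 311 in KO (0.44, SE 0.16). These 3 did not overlap, but WT library 2 again lay nearer to KO than WT library 1. Oocytes also hold mitotic transcripts, and their part in these values was not tested. Cdk1 was 80.4 and 77.6 in WT, against 69.9 and 78.2 in KO. Of 40 genes of G1/S and replication, 17 lay higher and 23 lower (median -0.03). Pcna was 220 and 213 in WT, against 176 and 218 in KO, and Slbp, the histone mRNA binding protein, was 564 and 577 in WT, against 637 and 828 in KO (0.35, SE 0.16).

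The genes of a list of MHC class I and interferon response lay on both sides of 0. Its median was 0.03 (-0.08 after quantile normalization), with 12 of 23 higher (54.2% of all genes) and 10 above without overlap (27.4% of all genes). H2-K1, a classical MHC class I heavy chain, was 109 and 81.5 FPKM in WT, against 211 and 167 in KO (0.98, SE 0.20, adjusted p = 0.238). H2-D1 was 129 and 119 in WT, against 274 and 177 in KO (0.82, SE 0.22), and their light chain B2m was 593 and 510 in WT, against 942 and 688 in KO (0.55, SE 0.19). H2-Q7, a class Ib gene, was 2.27 and 1.52 in WT, against 18.0 and 8.62 in KO, the largest difference of the list (2.23, SE 0.36). Near-identical class I genes share sequence, so their values are uncertain where fragments could be split between them. Psmb9, a subunit of the immunoproteasome, was 12.3 and 8.76 in WT, against 27.2 and 20.2 in KO (1.10, SE 0.24). Of 2 genes induced by type I interferon, both with overlap between the groups, Isg15 was 3.19 and 1.88 in WT, against 3.16 and 0.903 in KO, and Ifit1 was 2.50 and 0.558 in WT, against 1.21 and 1.23 in KO. KO library 1, which had the highest leukocyte genes, was also the higher KO library for each class I gene given. In KO library 2, H2-K1, H2-D1, B2m and Psmb9 were above both WT libraries too. Its leukocyte genes summed to less than in either WT library, though 4 of the 23 had both KO libraries above both WT libraries. The part of leukocytes in the class I values was not tested.

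The KO libraries parted in the immune list. Of 23 tested genes 22 had the higher mean in KO, with a median of 0.58, but 4 lay above without overlap, where 27.4% of all genes did. Against the WT mean the median was 1.58 in KO library 1 and -0.38 in KO library 2. Lyz2, a lysozyme of macrophages, was 142 and 122 FPKM in WT, against 588 and 82.0 in KO. Cd74, the invariant chain of MHC class II, was 68.8 and 21.3 in WT, against 89.5 and 31.0 in KO. The 4 genes with both KO libraries above both WT libraries were the chemokines Ccl4, at 1.35 and 2.28 in WT, against 6.09 and 6.01 in KO (1.34, SE 0.23), and Ccl3, at 0.602 and 1.09 in WT, against 4.47 and 2.98 in KO (1.35, SE 0.26), with C1qb and Mrc1. Ptprc, Cd3e and Cd79a did not pass the filter. At 44 h the list had 22 of 23 genes higher in KO, with medians of 0.54 in the library labelled KO replicate 1 and 0.76 in KO replicate 2.

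Markers of other ovarian cells gave mixed values. Theca and stroma genes had 13 of 17 higher (54.2% of all genes) and 4 above without overlap, where 27.4% of all genes were (median 0.29, or 0.07 without WT library 1), and their sum was 136 and 153 FPKM in WT, against 185 and 132 in KO. Dcn, the matrix protein decorin, was 22.7 and 29.6 in WT, against 45.5 and 35.7 in KO (0.62, SE 0.20), whereas Acta2, smooth muscle actin, was 43.5 and 38.0 in WT, against 32.1 and 15.6 in KO (-0.83, SE 0.34). Of 16 endothelial genes 8 passed the filter, Cdh5 and Kdr not among them, and they summed to 25.4 and 28.0 FPKM in WT, against 40.7 and 30.1 in KO. Surface epithelium genes had 9 of 13 lower (45.8% of all genes) and 4 higher, with differences from -1.04 to 1.27. Without overlap, 6 lay below (19.4% of all genes) and 3 above (27.4% of all genes). Upk3b was 25.8 and 21.3 in WT, against 13.4 and 8.80 in KO (-1.04, SE 0.24), and Krt8 was 82.3 and 63.4 in WT, against 77.8 and 70.4 in KO. Ovgp1, the oviduct glycoprotein, was 1.59 and 11.1 in WT, 61.2 in KO library 1 and 5.94 in KO library 2. The 6 tested oviduct genes summed to 53.8 and 48.2 FPKM in WT, against 115 and 47.9 in KO. The sum in KO library 1 thus rested largely on Ovgp1. KO library 1 was also the highest for leukocyte and red cell genes, the latter high in WT library 1 as well (1715 FPKM).

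Subunits of CCR4-NOT other than Cnot6 and Cnot6l lay close to their WT level or above it in most cases. Of the 12 subunits tested, 9 lay higher and 3 lower, and the median was 0.08. Cnot7, the other type of deadenylase in the complex, was 78.3 and 87.6 FPKM in WT, against 94.2 and 116 in KO (0.33, SE 0.16, adjusted p = 0.424), and its paralog Cnot8 was 111 and 106 in WT, against 103 and 119 in KO (0.02, SE 0.13). Cnot1, the scaffold, was 7.51 and 6.82 in WT, against 11.8 and 9.47 in KO (0.50, SE 0.19). Of 19 tested RNA-binding proteins and adaptors that recruit or oppose the deadenylases, 14 lay higher (54.2% of all genes). Without overlap, 8 lay above (27.4% of all genes) and 0 below (19.4%). The median was 0.13, and just under 0 without KO library 1 or after quantile normalization. Btg4 and Cpeb1, which lay higher, are also counted in the oocyte lists. In the same list Btg3 was 3.88 and 4.33 in WT, against 15.5 and 7.32 in KO. Zfp36l1, which binds AU-rich elements, was 29.4 and 36.0 in WT, against 32.5 and 25.7 in KO. Of 41 other decay factors 23 lay higher and 18 lower, with a median of 0.02 and differences from -0.42 to 0.56.

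Granulosa identity and hormone response genes were spread around 0. Of the 20 identity genes 11 lay higher and 9 lower (median 0.04). Without overlap, 4 lay above and 3 below, where 27.4% and 19.4% of all genes did. Dhh, the Desert hedgehog ligand sent to theca cells, was 57.9 and 71.4 FPKM in WT, against 41.6 and 43.8 in KO (-0.58, SE 0.16, adjusted p = 0.281), and Fshr, the FSH receptor, was 53.3 and 33.6 in WT, against 45.4 and 47.7 in KO. Of 18 genes of the FSH and LH response 9 lay higher and 9 lower, with Fst, follistatin, at 501 and 449 in WT, against 537 and 586 in KO and Inhba, the activin A subunit, at 965 and 481 in WT, against 511 and 360 in KO. Cited2, a transcriptional coregulator, was 58.4 and 60.1 in WT, against 43.4 and 32.1 in KO (-0.65, SE 0.18).

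The WNT and Notch list had a median of 0.29, with 12 of 20 genes higher and 8 above without overlap (54.2% and 27.4% of all genes). Against WT library 2 its median was 0.11 for KO library 1 and 0.03 for KO library 2. Jag1, a Notch ligand, was 12.7 and 14.2 FPKM in WT, against 27.3 and 27.7 in KO (0.98, SE 0.15, adjusted p = 0.213). Its target Hey1 was 2.73 and 4.03 in WT, against 6.39 and 6.10 in KO (0.74, SE 0.22), and Notch2 was 3.07 and 2.69 in WT, against 4.33 and 4.35 in KO. All 3 had both KO libraries above both WT libraries. Irs1, which relays insulin and IGF signals, was 7.70 and 6.45 in WT, against 3.91 and 4.06 in KO (-0.69, SE 0.19), while Igf1 was 71.6 and 89.3 in WT, against 74.2 and 69.8 in KO. Klf6, a zinc-finger transcription factor of the immediate-early list, was 52.6 and 52.2 in WT, against 25.8 and 20.4 in KO (-1.16, SE 0.16). Fos was 34.0 and 42.0 in WT, against 104 and 28.9 in KO, so it was high in KO library 1 alone. Nppc, the peptide by which granulosa cells hold the oocyte in meiotic arrest, was 60.4 and 52.8 in WT, against 84.6 and 73.1 in KO (0.47, SE 0.15). Gja1, the main granulosa gap junction protein, was 3285 and 2868 in WT, against 2789.9 and 3042 in KO.

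Metabolic, stress and housekeeping lists had small medians. Gpx3, a secreted glutathione peroxidase, was 647 and 497 FPKM in WT, against 334 and 191 in KO (-1.17, SE 0.29, adjusted p = 0.279), in an antioxidant list with 10 of 25 higher and 15 lower. Ldhb, a lactate dehydrogenase subunit, was 1693 and 1703 in WT, against 2580.3 and 2399.97 in KO (0.55, SE 0.12), although 15 of 19 glycolysis genes lay lower (median -0.09). Genes of the unfolded protein response had 10 of 23 higher, with Hspa5, the chaperone BiP, at 2166 and 2387 in WT, against 1788 and 2446 in KO. Of 22 apoptosis genes 12 lay higher and 10 lower. Ribosomal protein genes had 67 of 83 lower (45.8% of all genes) and 39 below without overlap (19.4% of all genes), with a median of -0.08. The differences of that list ranged from -0.99 to 1.09. With an unadjusted limma p under 0.05, 3 members were higher (10% of all genes) and 1 lower (4.04% of all genes). Rpl26 was the lowest, at 196 and 217 in WT, against 99.9 and 106 in KO (-0.99, SE 0.13, adjusted p = 0.189). It is a gene with many near-identical copies in the genome, which makes its value uncertain. Respiratory chain genes had 62 of 83 lower (45.8% of all genes), with a median of -0.09 and differences from -0.50 to 1.31. Of these 83 genes, 19 lay below without overlap (19.4% of all genes) and 8 above (27.4% of all genes). Replication-dependent histones, whose mRNAs lack a poly(A) tail, had 16 of 28 higher (median 0.02, and -0.12 after quantile normalization).

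In the group means, low-expressed genes leaned upward and high-expressed genes slightly downward. Classes of mean FPKM were made from the 11163 genes matched to GENCODE M21. Over 5 such classes of near-equal size, from the lowest to the highest, the median difference was 0.13, 0.10, 0.02, -0.02 and -0.06. It depended on the libraries: KO library 2 against WT library 2 gave 0.02 in both the lowest and the highest class, and WT library 2 against WT library 1 gave 0.09 in the lowest and -0.05 in the highest. Transcript features from GENCODE M21, matched for 11163 of the 12970 genes (86.1%), went with smaller differences. The median was 0.02, 0.03 and 0.05 for genes with 0, 1 and 2 or more copies of TATTTAT, a core of AU-rich elements, in the 3′ UTR. It was 0.05 in the class of 5 with the lowest GC content and 0.02 in that with the highest. There, however, the KO libraries parted, with medians of 0.20 for KO library 1 and -0.04 for KO library 2 against WT library 1.

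The same genes were then read in the 44 h libraries, which share none with the untreated ones. The library labelled KO replicate 1 at 44 h lay far from the other KO library in many genes, and its Cnot6 was within the WT range (26.7 FPKM, against 26.05 and 26.9 in WT and 17.4 in KO replicate 2). Each KO library at 44 h is therefore also given alone. At 0 h, 301 genes (2.32%) were at least 1 (log2) higher in KO without overlap and 74 (0.571%) at least 1 lower. Of the 301, 281 were higher in KO at 44 h as well (93.4%, where 56% of all genes were), by a median of 0.88, and 233 did not overlap (77.4%, against 24.5%). The library labelled KO replicate 1 alone gave 269 (all genes 54.3%) and KO replicate 2 alone 275 (all genes 57.3%). Leaving out the oocyte and meiosis lists, 265 of 285 (93.0%) had the same direction. These lists took out few of the 301 genes, and germ-cell genes outside them, such as Gtf2a1l, stayed in. The part of oocyte RNA in this share was thus not tested. Of the 74, 53 were lower at 44 h (71.6%, where 43.9% of all genes were), and 29 did not overlap (39.2%, against 15.2%). Either KO library alone also gave 53, where 45.6% (labelled KO replicate 1) and 42.5% (KO replicate 2) of all genes were lower. With a limit of 0.58 the counts were 1133 of 1231 and 266 of 325. With a limit of 1.5 they were 44 of 48 and 15 of 25, the latter 60%.

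Single genes gave the same picture at 44 h with exceptions. Fetub was higher in KO by 1.29, Gtf2a1l by 1.37, Lims2 by 0.91, H2-Q7 by 2.68 and Nrsn1 by 2.07, all without overlap. Ghr was lower by 0.95 on the log2 scale and Mug2 by 1.83, also without overlap, whereas Prss23, Stc1 and Cdc42ep3 overlapped. The oocyte lists had a median of 0.84, with 47 of 47 genes higher, and the library labelled KO replicate 1 gave 1.25 and KO replicate 2 gave 0.45. The cholesterol list had a median of -0.82, but -1.63 in the library labelled KO replicate 1 and -0.03 in KO replicate 2. Mitotic genes had 50 of 50 higher (median 0.43), and G1/S genes, at -0.03 without PMSG, had 38 of 40 higher (median 0.38). Over all genes the differences at the 2 times had a Pearson r of 0.42 across genes, which are not independent replicates. The interaction of genotype and time had an adjusted p under 0.05 in limma for Hist2h2ab and 3 of the short RNA entries called at 0 h, Mir686, Mir763 and Snora69, and an unadjusted p under 0.05 for 235.

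**Figure D4:**
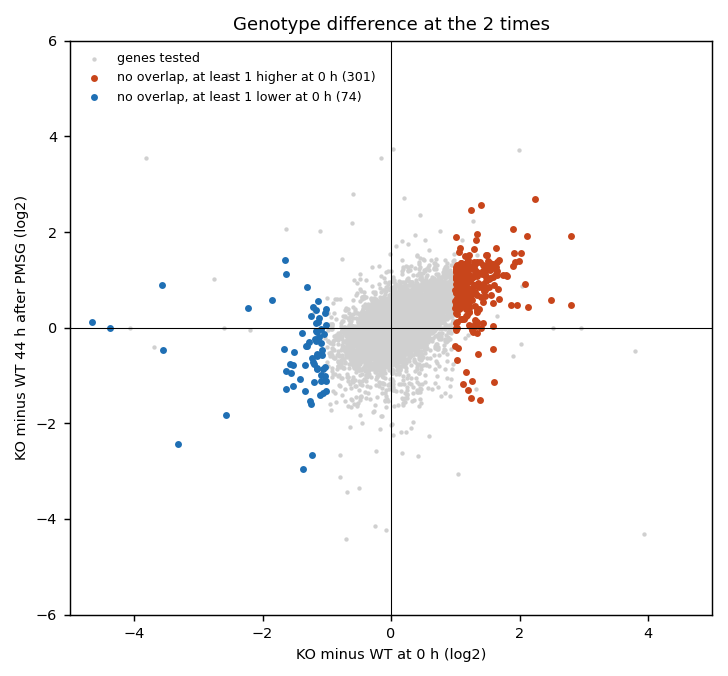
Each point is 1 gene tested at 0 h, with the KO minus WT difference in log2(FPKM + 1) without PMSG on the x axis and 44 h after PMSG on the y axis, and 13 genes lie outside the plotted range. Of the 301 genes at least 1 higher at 0 h without overlap (orange) 281 lie above 0 at 44 h, and of the 74 at least 1 lower (blue) 53 lie below 0.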

How the data were processed

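The values are FPKM in 1 table deposited by the authors, with a column per library and 1 row per gene symbol, per the file headers. Per the submitters' processing notes, the tools were Cufflinks 2.2.1 and TopHat2 2.1.1 and the build was mm9, listed without roles. No source used here names the gene annotation. The labels' protocols name total RNA extracted with Trizol, TruSeq and TruePrep kits and paired-end reads of 150 bases. Depth is unknown, and FPKM are not counts, so no count model was used.

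Values were analysed as log2(FPKM + 1), which understates changes of low genes. Genes with at least 1 FPKM in at least 2 of the 4 untreated libraries were kept. limma 3.58.1 (R 4.3.3) fitted a mean per genotype to these 4 libraries, with empirical Bayes and a mean-variance trend, two-sided. Adjustment was by Benjamini-Hochberg over the 12970 genes, with calls under 0.05. The code was tested on simulated data. SEs are those of the fit.

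The members and the 34 gene lists were chosen with earlier results of these data known, and no set test was run. Named genes were up to 10 per direction with the largest difference (group mean of at least 5 FPKM, no overlap, plain symbol, called first and then uncalled), Cnot6 and Cnot6l, and per list up to 4 members by mean FPKM and 3 by p. Other members of a list that are named were chosen after their values were seen. List genes absent under their current symbol were matched through RefSeq synonyms. Promoters and microRNAs are from RefSeq (GRCm38.p6), another assembly than the authors'. Alternatives covered the pseudocount, filter, scaling, libraries fitted, replicate block, empirical Bayes settings, short RNA entries and leaving out each library. The crossed pairing was added after seeing the data. Some members of the lists are counted but not reported by name here.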

Additional observations from a re-analysis of the deposited data

Results flagged for a closer look

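The genotype difference without PMSG was not that of 44 h after it in 4 entries, of which Hist2h2ab changed sign. By the interaction of genotype and time in limma, the change of the difference from 0 h to 44 h was -2.30 for Hist2h2ab (log2, adjusted p = 0.0416), a histone H2A gene that lay 1.12 higher in KO at 0 h and lower by 1.18 on the log2 scale at 44 h. It was 7 for Mir686 (adjusted p = 0.01004), -5.67 for Mir763 and 4.37 for Snora69 (adjusted p = 0.00203 for both). Mir686 was lower in KO at both times, by 7.64 at 0 h and 0.64 at 44 h. Mir763 and Snora69 were listed at 0 in all 44 h libraries, so their interaction restates the difference at 0 h. These 3 short entries passed the filter only through the group where they were high at 0 h, and their interaction is no further evidence.

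For 5 other named genes both KO libraries lay on 1 side of both WT libraries at 0 h and on the other side at 44 h, while their interaction did not pass the test (limma adjusted p = 1.00 for each). Of all genes, 27.4% lay above and 19.4% below without overlap at 0 h, and 24.5% and 15.2% at 44 h. The share of all genes that changed side was not counted, so these 5 are given by their values only. Me1, the malic enzyme, differed by 0.71 at 0 h and -1.02 at 44 h, an interaction of -1.73. The stress gene Gadd45b differed by 0.68 and -1.15, an interaction of -1.83. Rpl26 had an interaction of 1.62, from -0.99 to 0.62, the lactate carrier Slc16a1 of 0.59, from -0.34 to 0.25, and the chaperone Hsp90b1 of 0.35, from -0.23 to 0.11.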

How the results depend on the processing

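The 2 calls higher and 5 lower became 1 and 2 with no filter on low values, 4 and 3 in the fit of all 8 libraries, 1 and 3 with all 8 libraries and a replicate block, and 0 and 0 without the short RNA entries. Leaving out 1 library gave 3 to 6 higher and 5 to 16 lower. The replicate block on the 4 libraries gave 2 and 5, as did the crossed pairing. The correlation of the deviations of same-numbered libraries was -0.119 over the genes tested. This value cannot settle whether same-numbered libraries were handled together, which was not tested. Their erythroid sums did run together, at 1715 and 2242 FPKM in WT and KO library 1, against 240.0 and 246 in library 2. Differences of Cnot6 and Cnot6l kept their direction in all alternatives. Their limma adjusted p stayed above 0.05 in the fits with 2 libraries a group. Without 1 library, the difference of Cnot6 (-0.91) ranged from -0.59 to -1.23 and that of Cnot6l (-0.88) from -0.41 to -1.35. The cholesterol median of -0.53 was -0.76 with a pseudocount of 0.1, -0.75 with a filter of at least 5 FPKM and -0.68 with quantile normalization. The oocyte median of 0.89 was 1.29 without WT library 2 and 0.59 without WT library 1. Of the genes higher at 0 h, the share also higher at 44 h was 83.4% to 92.6% without 1 untreated library and 89.4% with the library labelled KO replicate 1 alone, and of the lower genes 81.8% with a limit of 0.58, 60% with a limit of 1.5 and 61.4% to 73.9% without 1 untreated library. The causes were not tested. Of the 338 values of the 20 genes with the largest differences under the alternatives, 331 stayed above the threshold and 7 passed it: Lims2 and Fetub with all 8 libraries, Akr1b3 without WT library 2, Il17b without KO library 2, and Mug2, Cald1 and Prss23 without KO library 1. Of the medians of the other lists, 493 moved by less than the spread between libraries and 68 by more. With 2 libraries a group an exact permutation test cannot go below p = 0.333, and the depth of the libraries is unknown.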
